A study of Homo sapiens with 6 samples.

Results

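The 43 genes described here encode the machinery that copies nuclear DNA, namely origin recognition and helicase loading factors, the replicative helicase and its activators, polymerases and primase, the sliding clamp and its loader, single-strand binding proteins, flap processing and ligation enzymes, and enzymes that supply deoxynucleotides. They were chosen by gene symbol from the 19845 symbols of the count table, and all 43 passed the filter on low counts, as did 11861 symbols in all. The values are reads per gene in 6 RNA-seq libraries of Molm13-Cas9 cells, which are human cells of acute myeloid leukemia with a rearranged MLL gene and stable expression of the nuclease Cas9. In 3 libraries the cells carried control guide RNAs (sgCtrl) and in 3 they carried guide RNAs against COX4I1 (sgCOX4I1), a subunit of cytochrome c oxidase in the mitochondrial respiratory chain. All 6 received the guide by lentivirus in the ipUSEPR vector and were selected in puromycin. Within a group each library carried a different guide, so the spread between replicates includes differences between guides, and p-values measure the spread between these libraries.

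In a cell that prepares to divide, the origin recognition complex marks start sites on DNA, and CDC6 and CDT1 load onto them the ring of MCM2 to MCM7. CDC45 and the GINS proteins then turn this ring into an active helicase, and MCM10 assists its firing. Primase with polymerase alpha lays down primers, polymerases epsilon and delta extend the leading and lagging strands, PCNA holds the polymerases on DNA after loading by the RFC complex, RPA coats the single strands, and FEN1 and LIG1 join the lagging-strand fragments. Many of these genes are transcribed by E2F factors as cells enter S phase, so their mRNA is often read beside the proliferation state of a culture. In bulk RNA, a smaller share of cells in S phase and less mRNA per S-phase cell cannot be told apart.

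The promoters shown are those of the 4 genes with the smallest unadjusted p between sgCOX4I1 and sgCtrl among the genes with an E2F core in this stretch. All 4 had lower values in sgCOX4I1. They were picked for a small p in these same data and not by sign. RFC3, with the highest log2 fold change, also holds the core in its window. The sequences are from RefSeq on GRCh38.p14 and cover the 250 bases before the start annotated there. They are read 5′ to 3′ on the strand of the gene, with each match to the E2F core in capitals. CDT1 lies on the plus strand at chr16:88803539-88803788, TK1 on the minus strand at chr17:78187053-78187302, POLE on the minus strand at chr12:132687343-132687592 and LIG1 on the minus strand at chr19:48170345-48170594. TK1 has 2 annotated windows, and the one shown holds a match. The gene spans given below are from GENCODE, which starts TK1 at 78187233, POLE at 132687376 and LIG1 at 48170603. The windows of TK1, POLE and LIG1 therefore lie partly or wholly inside the GENCODE genes, and that of CDT1 does not.
CDT1: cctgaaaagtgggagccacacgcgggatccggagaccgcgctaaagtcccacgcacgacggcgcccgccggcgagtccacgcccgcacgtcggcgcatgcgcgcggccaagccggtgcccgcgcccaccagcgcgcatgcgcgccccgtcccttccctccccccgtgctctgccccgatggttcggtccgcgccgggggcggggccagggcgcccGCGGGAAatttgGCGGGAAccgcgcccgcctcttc
TK1: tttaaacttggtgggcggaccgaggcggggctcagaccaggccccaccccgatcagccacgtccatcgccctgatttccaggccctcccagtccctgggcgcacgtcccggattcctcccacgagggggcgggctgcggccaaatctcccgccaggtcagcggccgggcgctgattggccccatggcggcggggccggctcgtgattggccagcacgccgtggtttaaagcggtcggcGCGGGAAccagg
POLE: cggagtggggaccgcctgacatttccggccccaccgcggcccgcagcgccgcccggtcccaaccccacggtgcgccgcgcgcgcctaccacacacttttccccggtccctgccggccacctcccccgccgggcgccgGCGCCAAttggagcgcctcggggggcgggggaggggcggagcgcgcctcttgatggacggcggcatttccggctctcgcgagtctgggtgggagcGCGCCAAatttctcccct
LIG1: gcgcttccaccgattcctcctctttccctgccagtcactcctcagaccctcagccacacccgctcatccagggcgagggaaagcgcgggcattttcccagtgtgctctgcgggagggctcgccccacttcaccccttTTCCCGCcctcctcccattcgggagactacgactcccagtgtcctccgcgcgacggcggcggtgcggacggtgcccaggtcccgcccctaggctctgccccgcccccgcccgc
The first base of the match lay 35 and 23 bases before the start in CDT1, 12 bases before it in TK1, 113 and 18 bases before it in POLE, and 113 bases before it in LIG1. The core was searched on both strands in the spelling TTCCCGC, and likewise in the spelling TTCGCGC, in the spelling TTGCCGC and in the spelling TTGGCGC, in windows that also take in 50 bases after the start. The LIG1 window held 3 matches in all, and those not shown did not lie wholly within the 250 bases printed. Of the 43 genes 37 had such a window, and 27 of these (73.0%) held the core, against 15.3% of all 27305 genes with a window. The longer form, with 1 more T in front of the core, was in 17 of the 37 (45.9%) and in 3.99% of all genes. A match is a run of letters and not a measured binding site.

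Other promoter elements were counted in the same windows. The cell cycle homology region, TTTGAA on either strand, is known from promoters of genes that peak in G2 and M phase. It was in 1 of the 37 replication genes (2.70%), that of RRM1, and in 11 of 16 G2/M genes (68.8%), while 18.2% of all genes held it. CCAAT was in 22 of the 37 (59.5%), in 14 of the 16 G2/M genes (87.5%) and in 39.7% of all genes. Between sgCOX4I1 and sgCtrl libraries, the median log2 fold change was -0.032 for the 27 genes with an E2F core and -0.056 for the 10 without one.

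The libraries held from 17241014 to 30861943 counts, and their scaling factors (TMM) lay between 0.987 and 1.01. The targeted mRNA, COX4I1, was 513, 501 and 462 CPM (reads per gene scaled to a common library size with TMM) in the sgCtrl libraries #1 to #3, against 132, 377 and 133 CPM for the sgCOX4I1 libraries #1 to #3. All 3 sgCOX4I1 libraries were lower than all sgCtrl libraries, with sgCOX4I1 #2 the nearest to them. The log2 fold change of COX4I1 was -1.21 (SE 0.29, adjusted p = 0.0512 from edgeR), so it did not pass the test at an adjusted p under 0.05. The 10 myeloid markers were present in every library, with a summed level of 3550 to 4335 CPM in sgCtrl and 4047 to 5236 CPM in sgCOX4I1. The largest part of that sum came from LYZ, at 1589 ± 479 CPM in sgCtrl and 2716 ± 600 CPM in sgCOX4I1 (SD, n = 3 libraries). MPO fell from 227 ± 8.27 to 109 ± 6.57 CPM (log2 fold change -1.06, adjusted p = 1.6e-05 from edgeR), the only marker of the 10 that passed the test, and FLT3 was 208 ± 12.3 and 178 ± 18.8 CPM. The part of these markers in the values below was not tested. Each of the 4 markers of T cells, of erythroid cells and of fibroblasts stayed under 1 CPM in every library. The 4 B cell markers summed to 16.5 to 19.4 CPM in sgCtrl and 19.1 to 21.6 CPM in sgCOX4I1, nearly all from PAX5, and the 4 epithelial markers to 11.6 to 17.4 and 8.44 to 12.8 CPM, from KRT8 and KRT18.

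Every replication gene was well counted. The lowest count of any of them in any library was 204, and the median coefficient of variation among the 3 sgCtrl libraries was 8.09%. Per kilobase of annotated exon, PCNA, the sliding clamp, had the highest level, at 144 ± 19.0 CPM per kilobase in sgCtrl libraries (SD, n = 3 libraries, as for each SD below). TYMS, which makes thymidylate, followed at 80.4 ± 7.37 CPM per kilobase and MCM3 at 76.7 ± 5.06, and their ranges overlapped. CDT1 at 63.5 ± 2.04 and MCM7 at 61.4 ± 3.53 CPM per kilobase also overlapped. POLA1, the catalytic subunit of polymerase alpha, was lowest, at 1.31 ± 0.114 CPM per kilobase, apart from its neighbour ORC4 at 2.60 ± 0.210. The highest level was 109 times the lowest on this scale and 55.5 times when the coding length was used in its place, and GINS1 moved from rank 36 to rank 8 between these lengths.

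**Figure D1:**
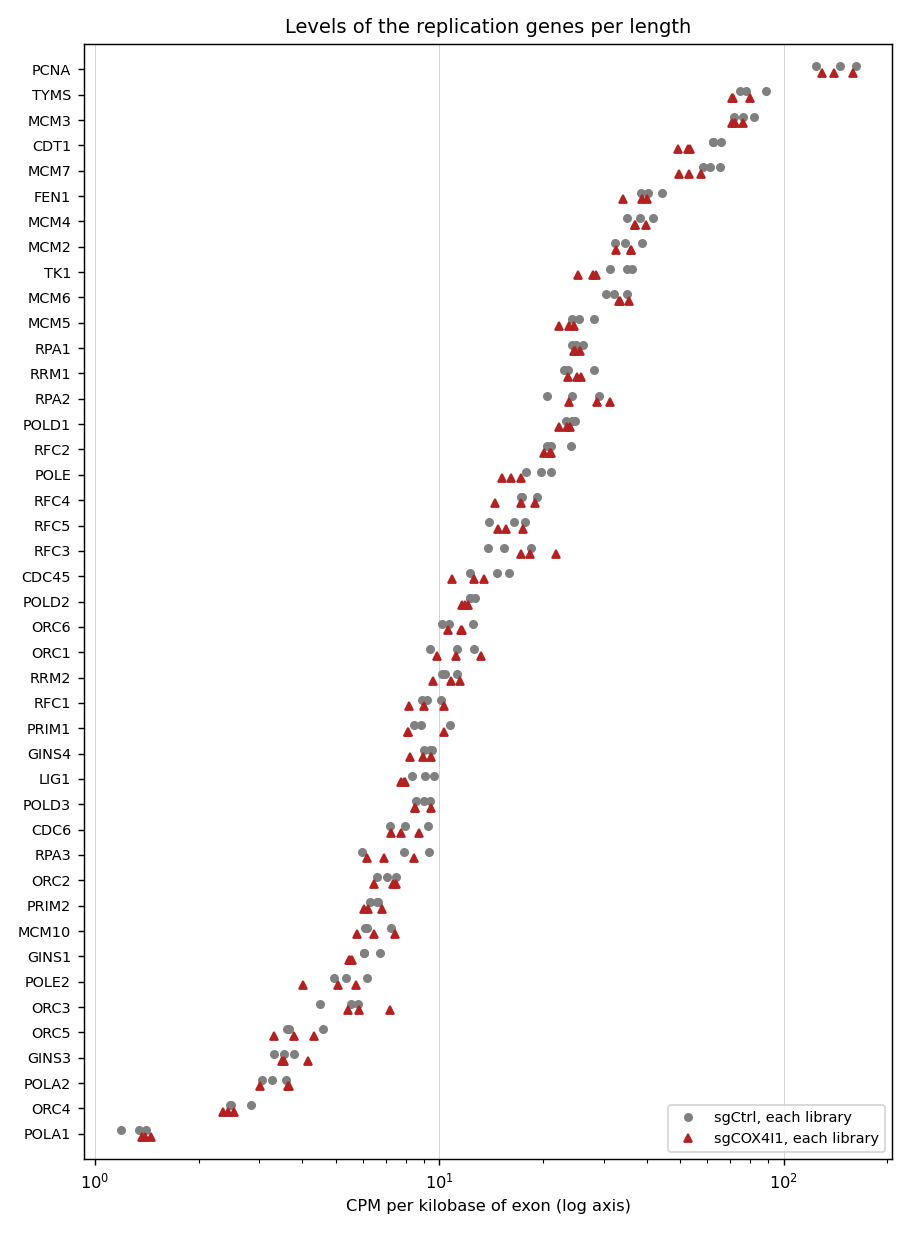
Level of each of the 43 replication genes in CPM per kilobase of annotated exon, on a log axis, with a circle for each sgCtrl library and a triangle for each sgCOX4I1 library. The genes run from POLA1 at the bottom to PCNA at the top, and within most genes the circles and triangles intermix.

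No replication gene passed the test between sgCOX4I1 and sgCtrl. In edgeR's quasi-likelihood fit with Benjamini-Hochberg adjustment over all genes, 0 of the 43 had an adjusted p under 0.05, where 247 of the 11861 genes tested (2.08%) did. None was called with a change of at least 2-fold either, against 0.202% of all genes. At an unadjusted p under 0.05 there were 6 lower genes (CDT1, MCM7, GINS1, POLE, LIG1 and TK1), where 8.41% of all genes were lower at that level, and 1 higher gene, RFC3, where 8.90% were higher. DESeq2 called 2 of the 43 (CDT1 and TK1), where it called 436 of 11407 genes in all. Limma-voom called 1 (CDT1), where it called 252 of 11861 in all.

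The differences were small in size. In sgCOX4I1 31 of the 43 had a lower value and 12 a higher one, and their median log2 fold change was -0.043, beside -0.0023 over all genes tested, of which 50.6% were lower. They ran from -0.33 for TK1, 79.7% of the sgCtrl level, to 0.26 for RFC3, 120% of it. The 95% intervals of all 43 lay inside 2-fold, with the outermost bounds at -0.51 for TK1 and 0.51 for RFC3, and 36 of them included 0. In 7 genes (16.3%), the 6 above and POLD2, the sgCOX4I1 values were all below the sgCtrl values, where this held for 10.4% of all genes. In 0 of the 43 did all lie above, where this held for 11.2% of all genes.

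**Figure D2:**
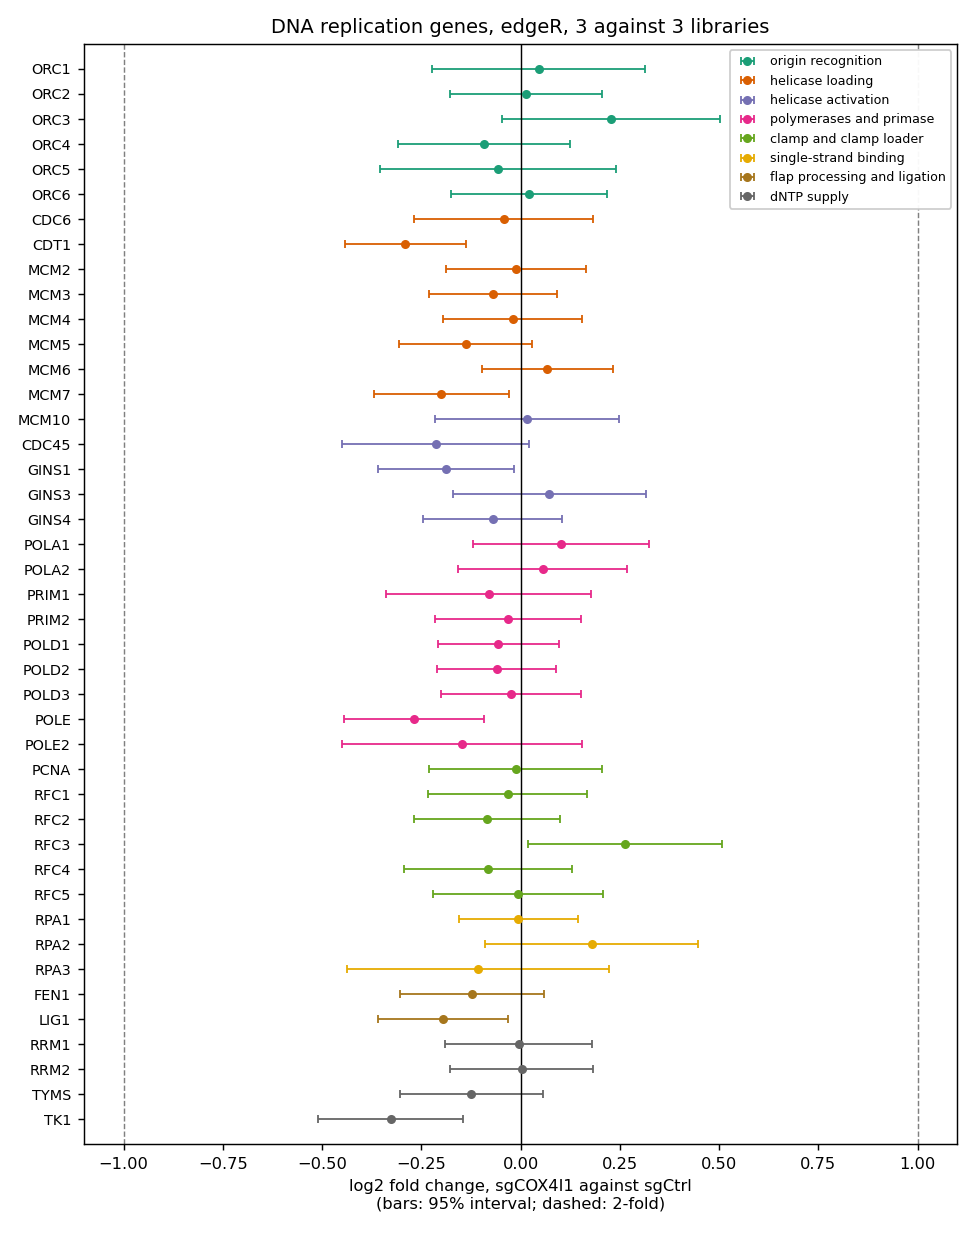
Log2 fold change between sgCOX4I1 and sgCtrl for each of the 43 genes, with its 95% interval from edgeR (3 libraries against 3), coloured by role in replication, with dashed lines at 2-fold. All intervals lie inside the dashed lines, and those of 7 genes leave out 0.

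Single libraries weighed on these counts. Without sgCtrl #1, the library with the highest replication gene levels, the median log2 fold change was 0.022 with 21 genes lower, and 2 were called, POLE (-0.33, adjusted p = 0.0317 from edgeR) and RFC3 (0.38, adjusted p = 0.0483 from edgeR). Over all genes 561 of 12042 were called in that fit. Without sgCtrl #3, TK1 alone was called (-0.39, adjusted p = 0.0389 from edgeR), where 266 of 11916 genes were called in all. Without both #1 libraries, an alternative chosen after seeing the data, the median was -0.049 and 1 gene was called, POLE. In that fit 487 of 11939 genes were called in all.

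As a group the replication genes moved by library. Measured as the mean log2 difference from the sgCtrl mean over the 43 genes, sgCtrl #1, #2 and #3 stood at 0.095, 0.00069 and -0.096, and sgCOX4I1 #1, #2 and #3 at 0.052, -0.092 and -0.11. The groups overlapped, as sgCOX4I1 #1 was above sgCtrl #2 and #3, and the group means differed by 0.049 with an SD of 0.095 in sgCtrl and 0.087 in sgCOX4I1. Within each group the #1 library was the highest, in 32 of the 43 genes for sgCtrl and in 34 for sgCOX4I1, where 38.4% and 35.8% of all genes had their highest value there. Their summed level was between 3789 and 4278 CPM in sgCtrl libraries and between 3689 and 4029 CPM in sgCOX4I1 libraries. The sgCOX4I1 #2 library, which kept the most COX4I1 mRNA of its group, was close to sgCOX4I1 #3 on this scale.

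**Figure D3:**
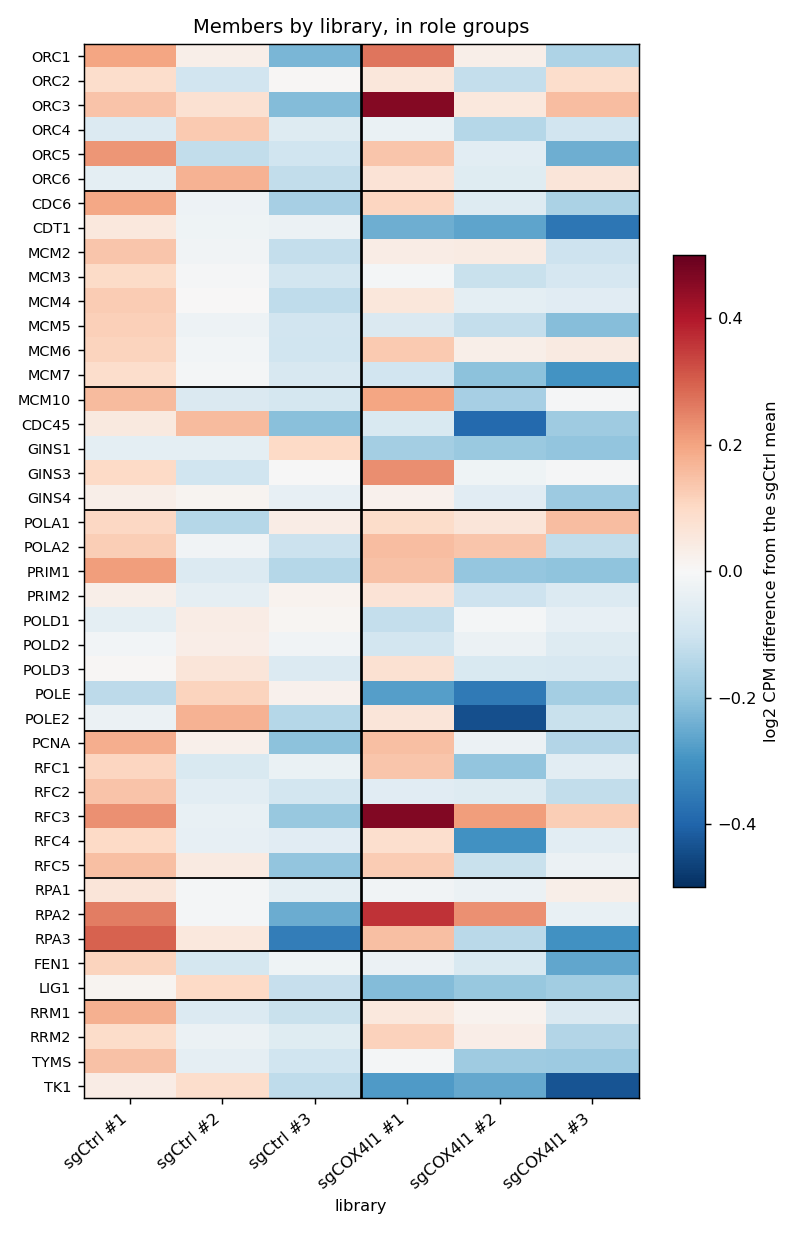
Log2 CPM difference of each replication gene (rows, in role groups) from its sgCtrl mean in each of the 6 libraries (columns), red above and blue below that mean. The column of sgCtrl #1 is above the mean for 36 of the 43 genes and that of sgCtrl #3 below it for 37, a range within the controls that is wider than the difference between the groups.

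Origin recognition was the role group with the smallest share of genes at lower values, 2 of 6, and its median log2 fold change was 0.017. ORC3, a core subunit of the complex, was 23.7, 22.6 and 18.5 CPM in sgCtrl #1, #2 and #3 and 29.5, 22.3 and 23.9 CPM in the sgCOX4I1 libraries. The sgCOX4I1 #1 library was the highest of the 6 and the groups overlapped, at a log2 fold change of 0.23 (SE 0.13). ORC4, another subunit, was 22.1, 25.3 and 22.2 CPM in sgCtrl, against 22.6, 21.0 and 21.6 CPM in sgCOX4I1, again with overlap (-0.091, SE 0.10). ORC1, whose protein level is known to vary over the cell cycle, differed by 0.046 (SE 0.12).

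In helicase loading 7 of 8 genes had lower values (median -0.056 on the log2 scale). CDT1, the loading factor that geminin inhibits and that is degraded in S phase, had the smallest p of the 43. The gene spans 88803789 to 88809258 of chromosome 16 (GRCh38, plus strand). CDT1 mRNA was 182, 172 and 171 CPM in the sgCtrl libraries, against 148, 146 and 136 CPM in the sgCOX4I1 libraries, each in the order #1, #2, #3 used throughout. No sgCOX4I1 library reached the lowest sgCtrl library, with a gap wider than the spread of each group. The means were 175 ± 5.63 and 143 ± 6.10 CPM, 81.7% of the sgCtrl level, a log2 fold change of -0.29 (SE 0.071, 95% interval -0.44 to -0.14). The adjusted p was 0.0512 by edgeR, just above the threshold, and across 16 alternatives it ran from 0.0028 to 0.219, with a log2 fold change from -0.31 to -0.22.

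CDT1 is on the same chromosome arm as the targeted gene. It lies 3.00 Mb from COX4I1, on the side of the chromosome end. Of the 43 tested genes on that side, CDT1 included, 27 had lower values in sgCOX4I1 (median -0.058 on the log2 scale), and 6 (13.95%) were lower with no overlap of the groups, where 10.4% of all genes were. By the test 1 of the 43 was lower and 1 was higher, where 2.08% of all genes were called. On the other side of COX4I1, over a span of like length, 13 of 18 genes had lower values, with a median of -0.11, and over the whole of that side of the arm 112 of 205 did, with a median of -0.014. Whether the position of CDT1 has a part in its value was not tested.

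The 6 subunits of the MCM ring, which act in equal number in the complex, did not all lie on the same side. MCM7 spans 100092233 to 100101940 of chromosome 7 (minus strand), and its level was 323, 302 and 288 CPM in sgCtrl, against 285, 264 and 247 CPM in sgCOX4I1. The 3 sgCOX4I1 libraries were lower without overlap, by a narrow margin between sgCOX4I1 #1 and sgCtrl #3 (log2 fold change -0.20, SE 0.079, adjusted p = 0.208 from edgeR). MCM5 was 204, 185 and 176 CPM in sgCtrl, against 179, 173 and 162 CPM in sgCOX4I1 (-0.14, SE 0.078), with overlap. MCM6 stood at 145, 133 and 126 CPM in sgCtrl, against 147, 137 and 139 CPM in sgCOX4I1 (0.067, SE 0.077), also with overlap. The groups overlapped for the remaining subunits too. MCM2 was 182, 164 and 152 CPM in sgCtrl against 170, 170 and 154 CPM (-0.012, SE 0.082), and MCM3 was 299, 278 and 262 CPM against 277, 259 and 264 CPM (-0.069, SE 0.075). MCM4 was 412, 378 and 346 CPM in sgCtrl against 393, 365 and 363 CPM (-0.020, SE 0.081), and the signs of MCM2 and MCM4 turned under some alternatives.

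The make-up of the ring's mRNA pool was read without a test. Of the summed level of the 6 subunits per kilobase of exon, MCM7 held 22.4% to 23.1% in sgCtrl libraries and 20.1% to 21.3% in sgCOX4I1 libraries. MCM6 held 12.0% to 12.1% in sgCtrl and 13.04% to 13.6% in sgCOX4I1. Neither pair of ranges overlapped. MCM5 likewise held 9.49% to 9.65% in sgCtrl and 8.998% to 9.36% in sgCOX4I1, and MCM4 held 13.9% to 14.4% and 14.6% to 14.9%. These are shares of 1 total, so a lower share of one subunit raises those of the others. On this length MCM3 had the largest share in every library, 28.2% to 28.5% in sgCtrl. Per coding length its share was 18.3% to 18.6% in sgCtrl and MCM4 or MCM7 had the largest, so the order of the subunits depends on the length used. The 4 subunits named here as free of overlap were so on both lengths. Per coding length MCM2 was too, by a very narrow margin, at 10.2% to 10.5504% in sgCtrl and 10.5509% to 11.3% in sgCOX4I1. In their own CPM the groups overlapped for MCM2, MCM4, MCM5 and MCM6. How often such shares are free of overlap in other sets of genes was not counted. CDC6, the partner of CDT1 in loading, was 43.3 ± 5.54 CPM in sgCtrl and 42.0 ± 3.98 CPM in sgCOX4I1, a difference smaller than either SD.

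**Figure D4:**
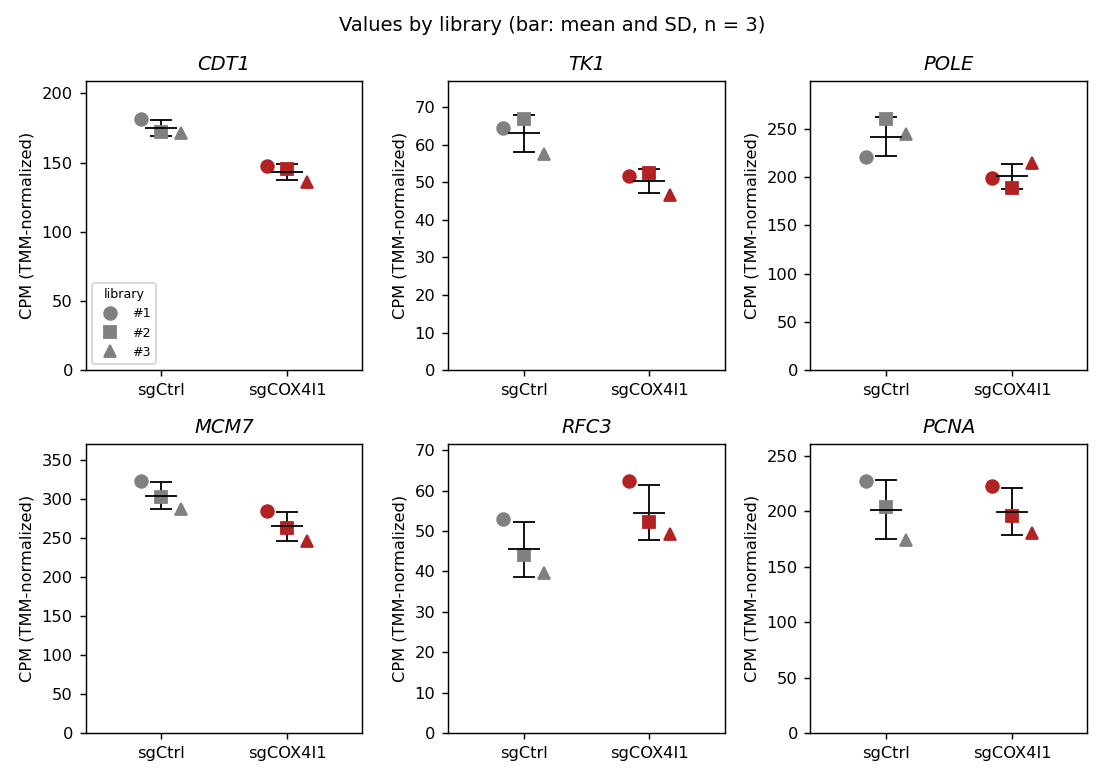
CPM of CDT1, TK1, POLE, MCM7, RFC3 and PCNA in each library, with circles, squares and triangles for #1, #2 and #3 and bars for the mean and SD of 3 libraries, on axes that start at 0. The groups do not overlap for CDT1, TK1, POLE and MCM7, and they overlap for RFC3 and PCNA.

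Among helicase activators 3 of 5 genes had lower values (median -0.070 on the log2 scale). GINS1, a subunit of the GINS complex, was 48.6, 48.6 and 53.9 CPM in sgCtrl, against 44.7, 44.2 and 43.8 CPM in sgCOX4I1. The sgCOX4I1 libraries lay close together and below all sgCtrl libraries (-0.19, SE 0.080, adjusted p = 0.240 from edgeR). CDC45, which joins GINS on the ring, was 43.9, 47.3 and 36.6 CPM in sgCtrl, against 40.2, 32.3 and 37.4 CPM in sgCOX4I1, with overlap (-0.21, SE 0.11). GINS3, GINS4 and MCM10 had log2 fold changes of 0.072, -0.070 and 0.016. GINS2, the fourth GINS gene and not among the 43, lies 0.109 Mb from COX4I1 on its other side and had a log2 fold change of -0.13 (SE 0.12, adjusted p = 0.608 from edgeR).

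Of the 9 polymerase and primase genes 7 had lower values (median -0.056 on the log2 scale). POLE, the catalytic subunit of leading-strand polymerase epsilon, spans 132623753 to 132687376 of chromosome 12 (minus strand). Its level was 220, 260 and 244 CPM in sgCtrl, against 199, 189 and 214 CPM in sgCOX4I1. Every sgCOX4I1 library was below every sgCtrl library, and sgCtrl #1 and sgCOX4I1 #3 were nearest each other. The log2 fold change was -0.27 (SE 0.082, 95% interval -0.44 to -0.092, adjusted p = 0.108 from edgeR). POLE2, its accessory subunit, was 15.8, 18.2 and 14.6 CPM in sgCtrl, against 16.8, 11.9 and 14.9 CPM in sgCOX4I1, with overlap (-0.15, SE 0.14). POLD1 and POLD2, subunits of lagging-strand polymerase delta, differed by -0.056 and -0.060, and POLD2 lay lower in all sgCOX4I1 libraries by a small margin, at 99.2 ± 1.89 against 95.1 ± 2.07 CPM. POLA1 was 21.9, 18.5 and 20.9 CPM in sgCtrl, against 21.7, 21.3 and 22.7 CPM in sgCOX4I1, with overlap (0.10, SE 0.10). Its partners in the primase complex, POLA2, PRIM1 and PRIM2, had log2 fold changes of 0.055, -0.080 and -0.031.

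For the clamp and its loader 5 of 6 genes had lower values (median -0.022 on the log2 scale). PCNA, a widely used marker of proliferating cells, was 227, 204 and 174 CPM in sgCtrl, against 222, 196 and 181 CPM in sgCOX4I1. The groups covered nearly the same range, with the highest value in the #1 library and the lowest in the #3 library of each (log2 fold change -0.012, SE 0.10, 95% interval -0.23 to 0.21), and the sign of PCNA turned under some alternatives. RFC3, a subunit of the clamp loader, was the replication gene with the largest positive value. It was 52.9, 44.1 and 39.6 CPM in sgCtrl, against 62.3, 52.2 and 49.2 CPM in sgCOX4I1. The groups overlapped only through sgCtrl #1, which lay above sgCOX4I1 #2 and #3 (0.26, SE 0.11, adjusted p = 0.250 from edgeR). RFC2 was 53.5, 46.7 and 45.4 CPM in sgCtrl, against 46.5, 46.3 and 44.5 CPM in sgCOX4I1, with overlap (-0.085, SE 0.086). The other loader subunits, RFC1, RFC4 and RFC5, had log2 fold changes of -0.032, -0.081 and -0.0074.

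RPA1, RPA2 and RPA3, the single-strand binding subunits, had log2 fold changes of -0.0062, 0.18 and -0.11. RPA2 was 57.7, 47.9 and 40.7 CPM in sgCtrl, against 62.1, 56.7 and 47.0 CPM in sgCOX4I1, with overlap. RPA3 was 30.1, 25.5 and 19.3 CPM in sgCtrl, against 27.3, 22.4 and 19.9 CPM in sgCOX4I1, also with overlap and with the widest interval of the 43 (SE 0.15). In both genes the #1 library was the highest and the #3 library the lowest of each group, and the sign of RPA3 turned without sgCtrl #1 (0.049).

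Of the enzymes that finish lagging-strand fragments, LIG1, the ligase, was 103, 110 and 94.3 CPM in sgCtrl, against 87.9, 89.5 and 90.5 CPM in sgCOX4I1. It was lower in every sgCOX4I1 library (-0.20, SE 0.076, adjusted p = 0.205 from edgeR). FEN1, the flap nuclease, was 97.1, 84.6 and 88.7 CPM in sgCtrl, against 88.2, 85.4 and 75.2 CPM in sgCOX4I1, with overlap (-0.12, SE 0.085).

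Enzymes of deoxynucleotide supply held both the largest difference and some of the smallest. TK1, the cytosolic thymidine kinase of the salvage pathway, spans 78174091 to 78187233 of chromosome 17 (minus strand). It was 64.5, 66.9 and 57.6 CPM in sgCtrl, against 51.7, 52.6 and 46.6 CPM in sgCOX4I1. Each sgCOX4I1 library was below each sgCtrl library, and the #3 library was lowest in both groups. The means were 63.0 ± 4.83 and 50.3 ± 3.24 CPM, a log2 fold change of -0.33 (SE 0.085, 95% interval -0.51 to -0.14). The adjusted p was 0.0642 by edgeR and ran from 0.00295 to 0.314 over the alternatives.

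RRM1 and RRM2, the subunits of ribonucleotide reductase, had log2 fold changes of -0.0044 (SE 0.086) and 0.0026 (SE 0.084), and their 95% intervals reached no further than -0.19 and 0.18. TYMS was 215, 188 and 181 CPM in sgCtrl, against 193, 172 and 171 CPM in sgCOX4I1, with overlap (-0.12, SE 0.084). Of the annotated exonic bases of TYMS 47.9% are shared with genes on the opposite strand, and since the strand setting of the counting is not given in the sources used here, its reads and theirs may not be separate. Exonic bases were shared in other replication genes too, most in MCM2 (23.6%) and GINS4 (23.4%) on the opposite strand and in POLA2 (16.8%) and PRIM1 (15.1%) on the same strand. Annotated pseudogenes also exist for PCNA (3), RPA2 (3), RRM2 (3), RPA3 (2) and TYMS (2), and 1 each for ORC1, POLD2, RFC3, RFC5 and FEN1. Reads of these genes could have been split.

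Genes outside the 43 that act around replication were read from 7 lists, and 2 of their 97 tested genes (2.06%) were called, both lower, close to the 2.08% called over all genes. E2F1, a transcription factor that drives S-phase genes, fell by 0.35 on the log2 scale (SE 0.083, adjusted p = 0.0437 from edgeR), and MKI67, the antigen used to mark proliferating cells, fell by 0.31 (SE 0.073, adjusted p = 0.0460 from edgeR). Both calls are near the threshold. MKI67 was called in none of the 6 fits that left out 1 library, nor without both #1 libraries or with library size scaling. E2F1 was called in 1 of those 6 fits, that without sgCtrl #1, and without both #1 libraries, and it was lost with library size scaling and with the GC correction. DESeq2 called 7 and limma-voom called 3, where they called 436 and 252 genes in all.

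By list, origin firing and licensing control had 8 of 10 genes lower (median log2 fold change -0.10) and 0 called, with RECQL4, a helicase needed for firing, at -0.26 (adjusted p = 0.0884 from edgeR). Fork accessory and Okazaki fragment genes had 7 of 16 lower (median 0.018) and 0 called. Chromatin assembly and maintenance methylation had 6 of 8 lower (median -0.078) and 0 called, with UHRF1, which reads hemimethylated DNA behind the fork, at -0.31 (adjusted p = 0.0508 from edgeR). RECQL4 and UHRF1 were named after their values were seen. The other deoxynucleotide enzymes had 4 of 10 lower (median 0.065) and 0 called. Of the G1/S regulators 10 of 25 were lower (median 0.043), E2F1 alone called, and of the checkpoint genes 5 of 8 tested (median -0.0043), 0 called. The G1/S values ran from -0.36 for E2F8 to 0.27 for CDKN1A, neither called in this fit. At an unadjusted p under 0.05 the 7 lists held 18 lower genes of 97 (18.6%, against 8.41% of all genes) and 4 higher ones (4.12%, against 8.90%).

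The G2/M genes stood further from 0 than the replication genes, with 19 of 20 having lower values, a median of -0.18 on the log2 scale, and 1 called, MKI67. No test compared the lists.

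**Figure D5:**
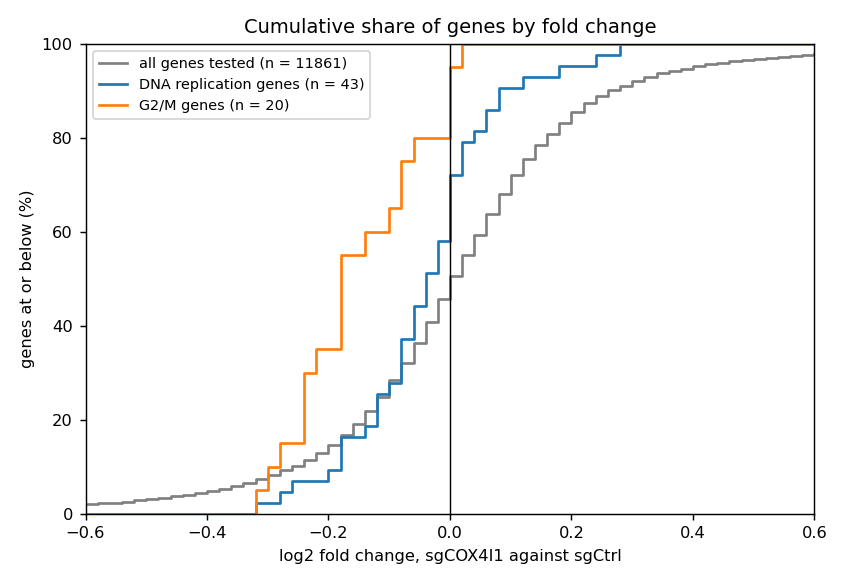
Share of genes (percent) at or below each log2 fold change between sgCOX4I1 and sgCtrl, for all 11861 genes tested (grey), the 43 replication genes (blue) and 20 G2/M genes (orange). The replication curve is steeper than that of all genes, with no gene beyond -0.33 or 0.26, and 31 of its 43 genes lie below 0, as do 19 of the 20 G2/M genes.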

How the data were processed

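The deposited file is a table of raw counts per gene symbol, which the authors did not normalize, with a column for each of the 6 libraries. The submitters' processing notes name bcl2fastq 2.20.0.422, STAR 2.6.0a, edgeR and GRCh38, and the column names point to marked duplicates and HTSeq, whereas the methods describe Trimmomatic, Bowtie2 and RSEM. Columns were matched to samples by the letter and number in their names (C for sgCtrl, K for the knockout).

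From the counts, edgeR 4.0.16 in R 4.3.3 was run on the 6 libraries with TMM scaling, its expression filter and its quasi-likelihood test, with no covariate, and p-values were adjusted by Benjamini-Hochberg over 11861 genes. Calls used an adjusted p under 0.05, and also with a 2-fold change. Log2 values per library used a prior count of 2. In simulated counts 172 of 200 genes changed 2-fold were recovered among 11861, with 10 others called. Changes as small as those of the replication genes were not simulated, so the recovery does not apply to them. With 3 libraries a group, an exact two-sided permutation test cannot go below 0.1.

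The genes and the lists were chosen with earlier results of these data known. Values in each library are given for the 2 genes with the smallest p in each role group, MCM2 to MCM7, PCNA, and the genes with the highest and lowest level per length. GENCODE gave exon lengths and positions, and 18437 of the 19845 symbols matched it. Alternatives were DESeq2 1.42.0, limma-voom (limma 3.58.1), RLE factors, library size, no filter or at least 10 counts in every library, a GC correction, the replicate number as a block, and each library left out. Replicates differed by more than sampling noise, so each was counted.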

Additional observations from a re-analysis of the deposited data

How the results depend on the processing

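Of the 43 replication genes, 0 were called in the fit reported. The count was 2 with DESeq2 (CDT1, TK1), 2 with no filter on low counts (CDT1, TK1), 1 with at least 10 counts in every library (CDT1), 1 with limma-voom (CDT1), 1 without both #1 libraries (POLE), and 0 to 2 with each library left out. Over all genes DESeq2 called 436 of 11407, the fit with no filter 537 of 15168 and that with at least 10 counts 261 of 11409. Limma-voom called 252 of 11861 and the fit without both #1 libraries 487 of 11939. With each library left out the calls ran from 24 of 11999 to 561 of 12042. The replicate number as a block gave 5 (CDT1, MCM7, POLE, RFC3, TK1), and the block with a GC correction gave 5 (CDT1, GINS1, POLE, RFC3, TK1). Deviations of same-numbered libraries had correlations of 0.38, -0.024 and 0.29 for #1, #2 and #3. The sgCtrl #1 and #3 libraries had their best match in their own number, and sgCtrl #2 did not. These values do not settle whether the numbers pair the libraries, and the fit reported used no block. The block raised the calls over all 11861 genes from 247 to 1408, and the block with a GC correction gave 1363.

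The count of genes without overlap, 7 as reported, was 8 to 14 with each library left out and 19 without both #1 libraries, where fewer libraries make overlap less likely. The share of all genes without overlap was counted only for the fit reported. The other counts therefore have no background beside them and are not read as a result about these genes. For the other lists, 2 genes were called as reported, 7 with DESeq2, 4 with a GC correction, 4 with no filter, 0 with library size scaling, 20 with the block, 24 with the block and GC correction, and 0 to 2 with each library left out. Over all genes 229 were called with a GC correction and 238 with library size scaling, and the other fits are given above. The ratio of the highest to the lowest level was 55.5 with coding length and 109 with exon length.

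Over all 43 genes, signs turned in 0 to 7 genes under the other alternatives and in 4 to 12 with each library left out, 12 without sgCtrl #1. Among the genes given by library, signs turned for MCM2 (0.022 with a GC correction, 0.0011 with library size scaling, 0.027 with the block and GC correction, 0.035 without both #1 libraries, 0.035 without sgCOX4I1 #3 and 0.059 without sgCtrl #1), for MCM4 (0.0074 without both #1 libraries, 0.00025 without sgCOX4I1 #3 and 0.044 without sgCtrl #1), for PCNA (0.00083 with library size scaling, 0.0013 without sgCOX4I1 #2, 0.056 without sgCOX4I1 #3 and 0.081 without sgCtrl #1) and for RPA3 (0.049 without sgCtrl #1). With each library left out the lowest values were -0.067, -0.077, -0.10 and -0.26 for MCM2, MCM4, PCNA and RPA3. None was past the threshold, and the cause was not tested. The longest-transcript length was not run. Each replication gene had at least 204 counts in every library, and precision is limited by 3 libraries per group.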
